A study of Homo sapiens with 42 samples.

Results

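The 7 genes XRN2, SCAF4, SCAF8, ZC3H4, WDR82, PPP1R10 and TOX4 encode factors that decide where RNA polymerase II stops transcribing. They were chosen by symbol: the rows of both count tables whose Ensembl identifier carries one of these names were taken, which gave 7 of 58243 rows in each table. All 7 members passed the filter on low counts in both tables, and the rule uses no measured value.

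The study treated K562 cells, an established chronic myeloid leukemia line that grows on the BCR-ABL1 kinase and can turn erythroid, and asked how treatment changes gene expression, transcriptional readthrough and splicing. Poly(A) RNA of whole cells (mRNA) was sequenced in 27 libraries of 9 groups and rRNA-depleted RNA of isolated nuclei (nuclear RNA) in 15 libraries of 5 groups, with 3 biological replicates per group. Untreated cells (CTRL) were compared with cells given 1 μM imatinib (IM), which inhibits BCR-ABL1, with cells given 5 μM JTE-607 (JTE), whose active form inhibits CPSF73, the nuclease that cuts pre-mRNA at the poly(A) site, and with cells under hyperosmotic shock from 110 mM KCl added to the medium. The mRNA series covered IM and JTE for 1, 6 and 18 hours (IM 1h to JTE 18h) and KCl for 1 and 3 hours, the nuclear series covered IM 1h, IM 18h, JTE 1h and KCl 1h, and all treatments ended together with the CTRL cells. Every group is the same cell line with no genetic change between groups. The mRNA comparisons all share the 3 mRNA CTRL libraries and the nuclear comparisons share the 3 nuclear CTRL libraries.

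Transcription ends when the cleaved RNA still attached to the polymerase is degraded from its free 5′ end and the polymerase slows down. XRN2 is the 5′-3′ exonuclease of this torpedo step. PPP1R10 (PNUTS) is the targeting subunit of the PTW/PP1 phosphatase, TOX4 and WDR82 are its other regulatory subunits, and the complex slows polymerase past the poly(A) site by dephosphorylating the elongation factor SPT5. ZC3H4 pairs with WDR82 in the Restrictor complex, which ends transcription of noncoding and early-terminated RNA, and WDR82 is also part of the SET1 histone methyltransferases. SCAF4 and SCAF8 bind the C-terminal domain of polymerase II and hold back the use of early poly(A) sites.

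On hg38 the count tables place XRN2 on chromosome 20 (21303304 to 21389827, plus strand), SCAF4 on chromosome 21 (31671033 to 31732075, minus), SCAF8 on chromosome 6 (154733325 to 154834244, plus), ZC3H4 on chromosome 19 (47064187 to 47113752, minus), WDR82 on chromosome 3 (52254421 to 52288020, minus), PPP1R10 on chromosome 6 (30600400 to 30618612, minus) and TOX4 on chromosome 14 (21476597 to 21499175, plus). All are protein-coding. The counting dropped read pairs that lie over exons of more than 1 gene and used no strand option, so exon bases shared with a neighbor matter. SCAF8 shares 13.0% of its 5481 exon bases with TIAM2 on the same strand, TOX4 shares 7.22% of 7091 with METTL3 and RAB2B on the opposite strand, XRN2 shares 4.95% of 3437 with an unnamed opposite-strand gene, and WDR82 shares 0.768% of 5726 with GLYCTK. SCAF4, ZC3H4 and PPP1R10 share none.

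RefSeq promoter entries (GRCh38.p14, 250 bases before to 50 after a start) were found for 6 of the 7 members. The promoters were read for short known motifs after results were known, and those found are shown. The choice was made knowing that PPP1R10 was the member with the largest change. The palindrome TGACGTCA, the cyclic AMP response element, was present in 3 of these 6 members (XRN2, ZC3H4 and WDR82), against 1.85% of all 35116 promoters. Members are counted by gene, XRN2 with 2 entries, while the share is over promoter entries. Since motifs are shown because they were found here, setting these shares side by side is no test of enrichment. TATAAA was searched on both strands and was present in 1 of these 6 members, PPP1R10, against 11.5% of all promoters. A single match among 6 is close to what that share gives. The motifs do not overlap, each is in capitals, and each window reads 5′ to 3′ on the gene's strand. The start is that of the RefSeq entry (for XRN2, with 2 entries, the nearer one), and for WDR82 and PPP1R10 it lies inside the span that the count tables give the gene, downstream of the outermost start.
XRN2 (chr20:21303267-21303294, plus, motif 54 bases before the RefSeq start): ggcggcgccgTGACGTCActtccgttct
ZC3H4 (chr19:47113781-47113808, minus, motif 22 bases before the RefSeq start): ggttgtcgagTGACGTCAcctccgggct
WDR82 (chr3:52278720-52278747, minus, motif 88 bases before the RefSeq start): gcggccgcgcTGACGTCAccaccccgcc
PPP1R10 (chr6:30617260-30617285, minus, motif 32 bases before the RefSeq start): ggcgtccgggTATAAAagactccacc
A match describes the letters of these windows and no binding was measured.

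Total counts per library ranged from 16439848 to 22505595 in mRNA and from 16175394 to 25103205 in nuclear RNA, apart from 2 deeper mRNA libraries, KCl 1h replicate 2 with 62953314 and replicate 3 with 42474454. The erythroid markers GATA1, TAL1 and HBG1 had at least 110.1 CPM (each gene's share of a library's counts scaled to a common total, with TMM scaling between libraries) in every library. In bulk RNA, fewer cells with a transcript and less transcript per cell cannot be told apart. Below, a member passed the test at an edgeR adjusted p under 0.05 over all genes tested, and was called when it also moved beyond 0.6 on the log2 scale, the threshold of the study. A fit with the replicate number as a block is cited where it changes whether a member passed and where libraries of equal number deviated together. In mRNA it takes CTRL libraries 1 and 2 in exchanged order, since the study's own read statistics number them the other way round than the labels.

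In untreated cells all 7 genes were well expressed. Per kb of exon length, mRNA levels in CTRL were 36.8 ± 2.66 CPM for XRN2 (SD, n = 3), 25.8 ± 2.64 for SCAF4, 25.1 ± 2.90 for WDR82, 23.5 ± 0.17 for SCAF8, 18.5 ± 2.61 for PPP1R10, 13.9 ± 2.54 for ZC3H4 and 7.68 ± 0.70 for TOX4. XRN2 thus stood at the 92.9th percentile of the 18095 genes tested and TOX4 at the 69.6th. In nuclear CTRL the order differed: PPP1R10 was first with 33.5 ± 3.69 CPM per kb, followed by XRN2 with 31.0 ± 2.32, SCAF4 with 29.9 ± 0.92, ZC3H4 with 28.1 ± 0.91, SCAF8 with 24.2 ± 1.78, WDR82 with 21.7 ± 1.17 and TOX4 with 8.77 ± 0.19. Reads that span introns over 10000 bases were not aligned, which touches 2 introns each of XRN2 and SCAF4 and 1 each of SCAF8 and ZC3H4, so levels of these genes may be understated against the others.

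**Figure D1:**
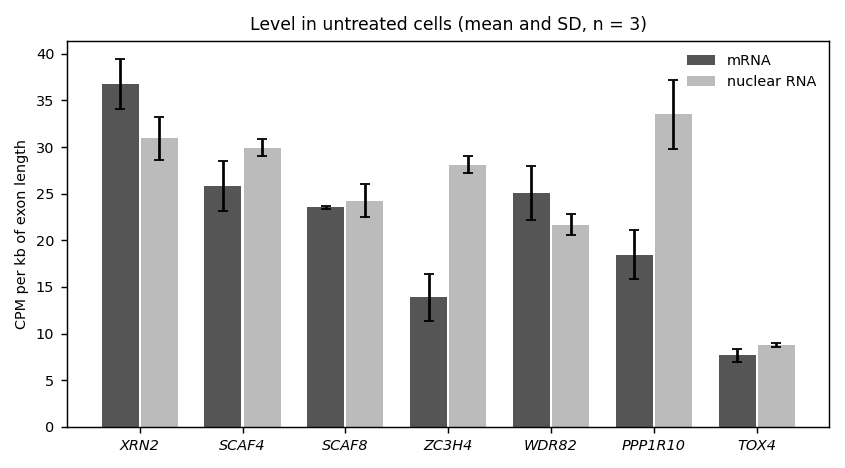
Level of each gene in untreated cells in CPM per kb of exon length, as bars for mRNA (dark) and nuclear RNA (light) with the SD of 3 libraries. TOX4 was the lowest in both fractions, and PPP1R10 and ZC3H4 were higher in nuclear RNA than in mRNA while XRN2 and WDR82 were lower.

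Nuclear and mRNA CTRL libraries were compared directly in a fit of the 6 CTRL libraries, in which 5 of 7 members passed the edgeR test, against 58.5% of all genes tested. ZC3H4 was higher in nuclear RNA by a log2 fold change of 0.63 (SE 0.14, adjusted p 0.00182) and PPP1R10 by 0.47 (SE 0.13, adjusted p 0.00868). XRN2 was lower, with a log2 fold change of -0.64 (SE 0.11, adjusted p 0.00031), as were WDR82 with -0.60 (SE 0.11, adjusted p 0.000603) and SCAF8 with -0.35 (SE 0.10, adjusted p 0.0122). SCAF8 no longer passed without nuclear CTRL replicate 2 or 3. TOX4 at -0.20 and SCAF4 at -0.18 did not pass, but both did without mRNA CTRL replicate 3 (-0.32, adjusted p 0.0287, and -0.28, adjusted p 0.042). This fit scales both fractions together, whereas the levels per kb above were scaled within each fraction, and on those SCAF8, SCAF4 and TOX4 were higher in nuclear RNA, so the direction of these 3 genes depends on the scaling. The directions of ZC3H4, PPP1R10, XRN2 and WDR82 were the same on both. The RNA fraction and the kind of library (poly(A) selection or rRNA depletion) cannot be told apart in this contrast.

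Against CTRL, 15 of the 84 tests of a member in 12 comparisons passed, and 4 were called. In mRNA, none of 7 members passed after IM 1h (against 0.0166% of all genes tested) or after IM 6h (16.0%), 3 passed after IM 18h (43.8%), 1 after JTE 1h (0.984%), 2 after JTE 6h (18.1%), 2 after JTE 18h (9.19%), 1 after KCl 1h (6.24%) and 2 after KCl 3h (15.8%). In nuclear RNA none passed after IM 1h (0.0456%) or JTE 1h (9.86%), 3 passed after IM 18h (45.6%) and 1 after KCl 1h (27.2%). In the 4 comparisons in which no member passed, an unadjusted p under 0.05 was seen for 0 members after mRNA IM 1h, 3 after mRNA IM 6h, 0 after nuclear IM 1h and 0 after nuclear JTE 1h, and DESeq2 passed 0 in each. With the replicate block 2 members passed after mRNA IM 6h (against 27.3% of all genes) and 5 after mRNA KCl 3h (22.5%). The median log2 fold change of the 7 members lay between -0.17 and 0.09 in mRNA and between -0.07 and 0.01 in nuclear RNA, while the median of all genes lay between -0.01 and 0.04. The called members were PPP1R10 in 3 comparisons and TOX4 in 1. Calls beyond 0.6 made up 13.2% of all genes tested in mRNA JTE 6h, 5.45% in KCl 1h, 11.9% in KCl 3h and 23.8% in nuclear KCl 1h.

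**Figure D2:**
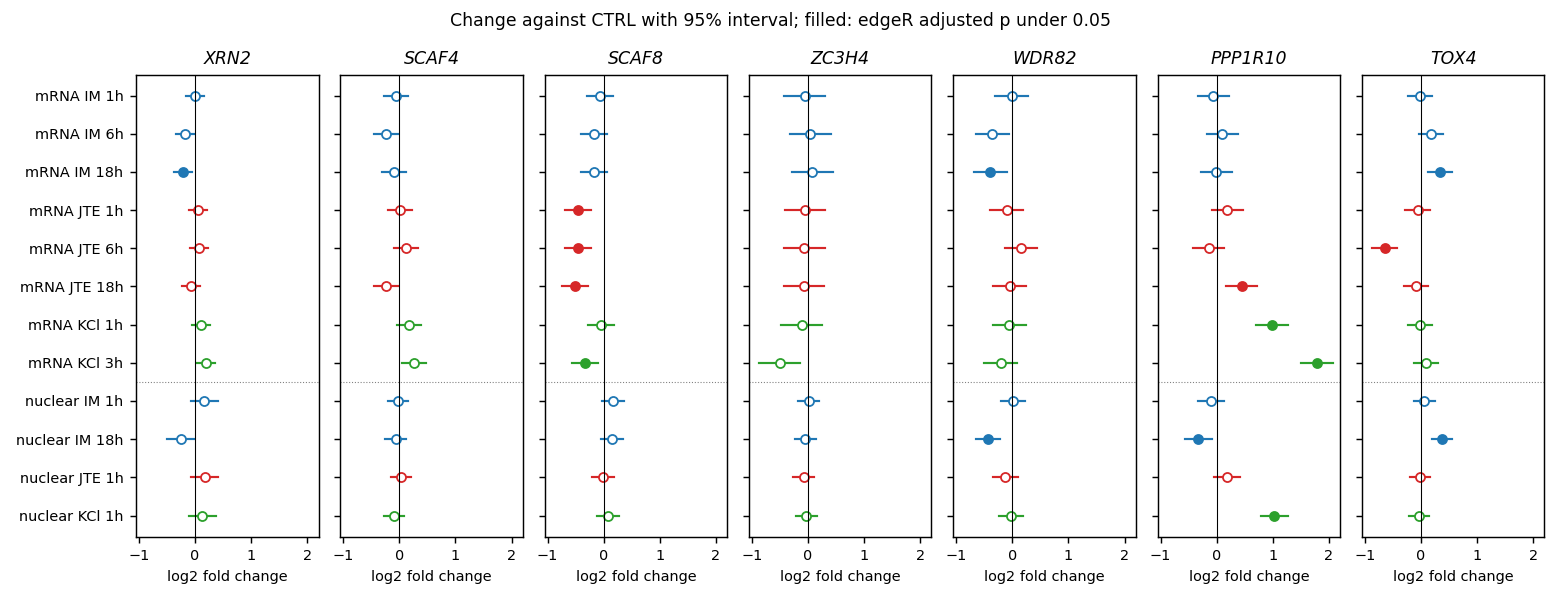
Log2 fold change against CTRL (x axis) of each gene in 8 mRNA and 4 nuclear comparisons (y axis), with 95% intervals and filled circles for an edgeR adjusted p under 0.05. PPP1R10 after KCl reached 1.79 in mRNA, TOX4 fell to -0.65 at JTE 6h, and SCAF8 lay near -0.5 at all 3 JTE times in mRNA.

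PPP1R10, the PP1 targeting subunit, had the widest range of the 7 members: the highest mRNA group mean was 3.82 times the lowest, against 1.33 to 1.97 for the others. Its mRNA stood at 111, 93.2 and 84.6 CPM in the CTRL libraries, at 183, 192 and 197 after KCl 1h, and at 286, 315 and 400 (399.9) after KCl 3h. Every KCl library was above every CTRL library, and every KCl 3h library was above every KCl 1h library. The log2 fold change was 0.99 at 1 h (SE 0.14, adjusted p 3.47e-05) and 1.79 at 3 h (SE 0.14, adjusted p 4.11e-09), a rise of 3.46-fold at 3 h. Of the 18095 genes tested, 809 rose more than PPP1R10 at 1 h and 595 at 3 h. Without the 2 deepest KCl 1h libraries the change at 1 h was 0.90 (adjusted p 0.0169).

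The rise of PPP1R10 was also seen in the nuclei. Nuclear RNA held 153, 181 and 190.3 CPM in CTRL and 338, 381 and 350.0 after KCl 1h, with no overlap between the groups. The log2 fold change was 1.03 (SE 0.11, adjusted p 5.93e-07), and 3118 of 21929 genes rose more. The nuclear minus mRNA difference of the KCl 1h response was -0.06 (95% interval -0.40 to 0.28, adjusted p 0.971).

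With JTE and IM, PPP1R10 passed in 1 comparison with CTRL each. After JTE 18h its mRNA stood at 130 (129.9), 127 and 136 CPM, above every CTRL library, and passed at 0.45 (SE 0.13, adjusted p 0.038). It failed in 5 of 6 cases without 1 library: only without CTRL replicate 1 did it still pass, and without CTRL replicate 3 the value was 0.35 (adjusted p 0.19). JTE 1h gave 0.19 and JTE 6h -0.14, neither of which passed, and JTE 18h was above JTE 6h by 0.59 (SE 0.14, adjusted p 0.00305). In nuclear RNA after IM 18h PPP1R10 read 125, 131 and 163 CPM, a log2 fold change of -0.32 (SE 0.11, adjusted p 0.0232) with libraries that overlap those of CTRL. It no longer passed in 4 of 6 cases without 1 library (CTRL replicate 2 or 3, IM 18h replicate 1 or 2), and leaving out CTRL replicate 3 moved it to -0.21. Nor did it pass with upper quartile scaling (-0.20, adjusted p 0.189), with library totals only (-0.26, adjusted p 0.0783), without genes over 1% of counts (-0.27, adjusted p 0.0615) or with only the 2 groups (-0.32, adjusted p 0.056). In mRNA IM 18h the log2 fold change was -0.01. Ordered by mRNA level, KCl 3h, KCl 1h, JTE 18h and JTE 1h did not overlap from one to the next, while JTE 1h, IM 6h, CTRL, IM 18h, IM 1h and JTE 6h each overlapped their neighbor.

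**Figure D3:**
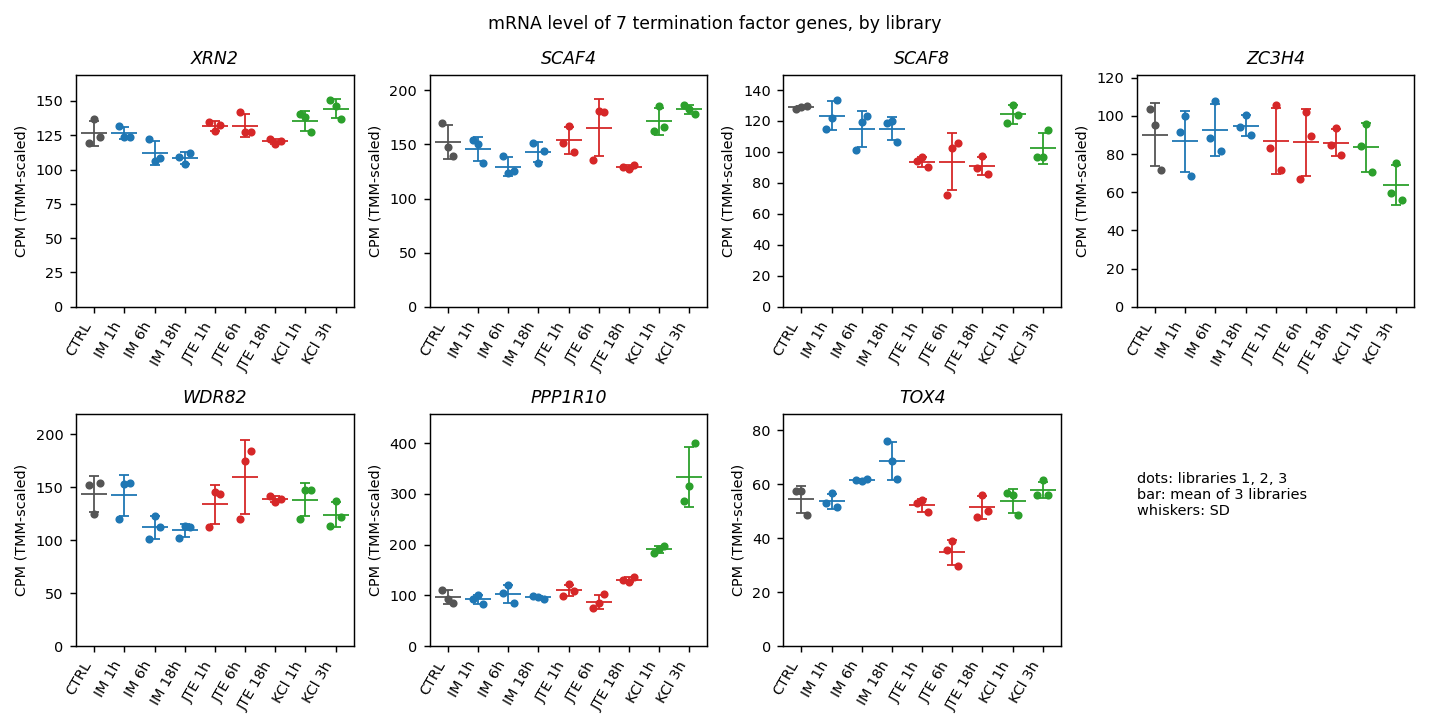
mRNA level in TMM-scaled CPM (y axis, from 0) in each of 27 libraries (dots) with the mean and SD of each group of 3 (x axis). PPP1R10 climbed from 84.6 to 111 CPM in CTRL to 286 to 400 (399.9) after KCl 3h, TOX4 was lowest at JTE 6h, and SCAF8 was lower in all 9 JTE libraries than in CTRL.

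TOX4, the HMG-box subunit of PTW/PP1, fell at JTE 6h and was higher at IM 18h. Its mRNA read 57.3, 57.4 and 48.7 CPM in CTRL, 53.1, 54.0 and 49.6 after JTE 1h, 35.6, 39.0 and 29.8 after JTE 6h, and 47.9, 56.2 and 50.1 after JTE 18h. The JTE 6h libraries were below all 24 other mRNA libraries. Against CTRL the log2 fold change was -0.65 (SE 0.105, adjusted p 8.28e-05), against JTE 1h -0.59 (SE 0.105, adjusted p 0.000415), and JTE 18h was above JTE 6h by 0.56 (SE 0.105, adjusted p 0.0005). All 3 changes passed without any 1 library. METTL3, which overlaps TOX4 on the opposite strand, had a log2 fold change of 0.40 at JTE 6h (adjusted p 0.296), and RAB2B one of -0.28 (adjusted p 0.313).

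After IM 18h TOX4 mRNA read 76.0, 68.4 and 61.8 CPM, above every CTRL library (log2 fold change 0.34, SE 0.104, adjusted p 0.0113). It did not pass without CTRL replicate 3, without IM 18h replicate 1 or 2 (0.22 at the lowest) or without the low-count filter (0.25, adjusted p 0.267). In nuclear RNA TOX4 rose from 61.1, 63.6 and 61.7 CPM in CTRL to 87.0, 77.6 and 77.2 after IM 18h, a change of 0.37 (SE 0.09, adjusted p 0.00134) that passed without any 1 library. RAB2B, which shares 124 exon bases with TOX4, was also higher after IM 18h in mRNA (0.73, adjusted p 0.00156) and in nuclear RNA (0.61, adjusted p 0.000163). METTL3, which shares 388, changed by -0.11 in mRNA (adjusted p 0.732) and fell in nuclear RNA (-0.38, adjusted p 0.00221). The part of either gene in the TOX4 values was not tested. IM 1h and KCl left TOX4 between -0.04 and 0.09 in both fractions, with no test passed. By mRNA level TOX4 ran from IM 18h, IM 6h, KCl 3h, CTRL, KCl 1h, IM 1h, JTE 1h and JTE 18h down to JTE 6h, and only the first and the last step in that order showed no overlap.

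SCAF8 mRNA fell at every JTE time. CTRL libraries were close together at 128, 129 and 130 (129.8) CPM. JTE libraries read 94.4, 96.6 and 90.3 at 1 h, 72.4, 103 and 106 at 6 h, and 89.8, 97.1 and 85.5 at 18 h, all below CTRL. The log2 fold changes were -0.46 at 1 h (SE 0.11, adjusted p 0.0444), -0.46 at 6 h (SE 0.11, adjusted p 0.00458) and -0.51 at 18 h (SE 0.11, adjusted p 0.00542). The 1 h change no longer passed when any 1 of the 6 libraries was left out, with values from -0.48 to -0.43, or in 5 of 9 other settings. The 6 h change rested partly on JTE 6h replicate 1, without which it was -0.31 (adjusted p 0.039), and did not pass when only the 2 groups were fitted (-0.48, adjusted p 0.0838). The 18 h change passed without any 1 library.

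SCAF8 mRNA was also lower after KCl 3h, at 96.4, 96.7 and 114 CPM (log2 fold change -0.33, SE 0.11, adjusted p 0.0432). It did not pass in 5 of 6 cases without 1 library, all but KCl 3h replicate 3, without the low-count filter (-0.35, adjusted p 0.0835) or with only the 2 groups (-0.36, adjusted p 0.0651). After IM 1h, 6h and 18h and KCl 1h no test of SCAF8 passed. In nuclear RNA SCAF8 ranged from 131 CPM after JTE 1h to 149 after IM 1h, with 133 in CTRL, and no comparison with CTRL passed. The nuclear minus mRNA difference of the JTE 1h response was 0.47 (SE 0.13, unadjusted p 0.00214, adjusted p 0.387), which did not pass, while with the replicate block it did (0.47, adjusted p 4.47e-05, against 6.69% of all genes). TIAM2, whose exons overlap those of SCAF8 on the same strand, had a log2 fold change of 0.49 at mRNA JTE 1h (adjusted p 0.439), 0.78 at JTE 6h (adjusted p 0.00592), 0.06 at JTE 18h (adjusted p 0.913) and 0.69 at KCl 3h (adjusted p 0.0162). TIAM2 was also higher where SCAF8 did not pass. In nuclear RNA its change was 1.03 after JTE 1h (edgeR adjusted p 0.000182) and 1.18 after KCl 1h (adjusted p 7.24e-06). In mRNA its change was 0.97 after IM 18h (adjusted p 0.000331) and 0.74 after KCl 1h (adjusted p 0.0187). The remaining comparisons of TIAM2 with CTRL, all with IM, did not pass. Reads over exons of both genes were not counted for either, and the part of this overlap in the SCAF8 values was not tested.

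SCAF4, the partner of SCAF8, passed in no comparison with CTRL in the main fit. Its mRNA read 170 (169.7), 148 and 139 CPM in CTRL, 136, 181 and 180 (180.0) after JTE 6h, 129, 128 and 131 after JTE 18h, and 187, 183 and 178 after KCl 3h. JTE 18h libraries were all below and KCl 3h libraries all above CTRL, with log2 fold changes of -0.24 (adjusted p 0.162) and 0.26 (adjusted p 0.092). The latter passed with the replicate block (0.26, adjusted p 0.0443) and, without a block, when CTRL replicate 1 was left out (0.34, adjusted p 0.0462). JTE 18h was below JTE 6h by a log2 fold change of -0.36 (SE 0.10, adjusted p 0.0147), which no longer passed in 5 of 6 cases without 1 library, all but JTE 6h replicate 1. By mRNA level every group of SCAF4 overlapped its neighbor, from KCl 3h with 183 CPM to JTE 18h with 129. Nuclear SCAF4 stayed between 165 and 180.3 CPM on group average, and the smallest of its adjusted p-values against CTRL was 0.514.

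In mRNA the ratio of the pair did not overlap CTRL in several JTE and KCl groups, in a design too small for the exact test to pass. The ratios here and below were added with the changes of single members known, and partly restate them. How often other gene pairs separate in this way was not tested. At KCl 1h, where neither gene passed, the lowest library lay at 0.31 against 0.30 for the highest of CTRL. The ratio of SCAF4 to SCAF8 counts within a library, each count divided by the gene's exon length, needs no scaling between libraries. On the log2 scale it was 0.30, 0.09 and 0.00 (-0.0031) in CTRL, 0.58, 0.68 and 0.55 after JTE 1h, 0.80, 0.71 and 0.66 after JTE 6h, 0.35, 0.40 and 0.31 after KCl 1h and 0.85, 0.81 and 0.54 after KCl 3h. These 4 groups did not overlap CTRL, and their means were higher by 0.48, 0.60, 0.23 and 0.60. Each gave an exact 2-sided permutation p of 0.1, and no lower value is possible with 3 libraries a group. JTE 18h, at 0.42, 0.29 and 0.51, overlapped CTRL (difference 0.28, exact p 0.2). After IM the differences were 0.01, -0.06 and 0.08 at 1, 6 and 18 h, with overlap. In nuclear RNA all 4 treated groups overlapped CTRL, with differences from -0.21 to 0.04.

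The ratio of PPP1R10 to TOX4, also of counts divided by exon length, spread further. In mRNA it was 1.40, 1.14 and 1.24 (log2) in CTRL and exceeded CTRL by 1.01 after KCl 1h, 1.70 after KCl 3h, 0.50 after JTE 6h and 0.54 after JTE 18h, and it was lower after IM 18h by a difference of -0.33. None of these groups overlapped CTRL (exact permutation p 0.1 each). In nuclear RNA the difference was 1.07 after KCl 1h, -0.70 after IM 18h and 0.20 after JTE 1h, again without overlap (exact permutation p 0.1 each), and -0.15 after IM 1h with overlap.

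**Figure D4:**
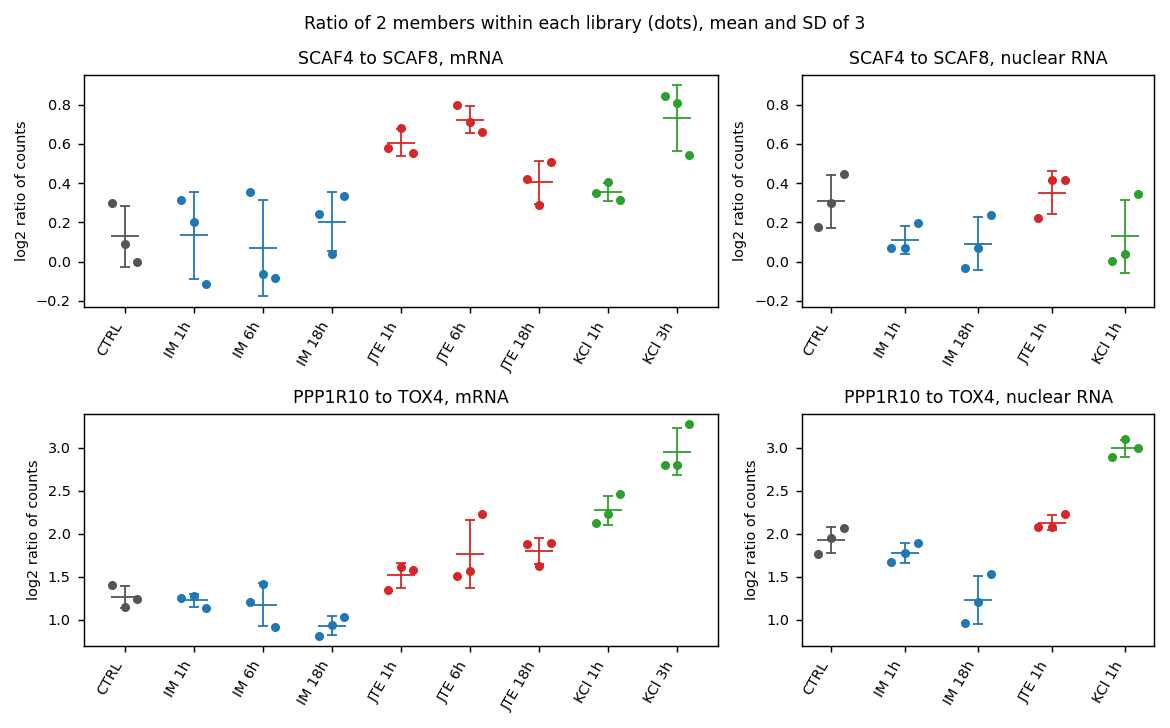
Log2 ratio of the counts of 2 members, each divided by exon length, within each library (dots), with mean and SD of 3. SCAF4 to SCAF8 is at the top and PPP1R10 to TOX4 at the bottom, with mRNA left and nuclear RNA right. The SCAF4 to SCAF8 ratio was above CTRL after JTE 1h, JTE 6h and both KCl times in mRNA and overlapped CTRL in nuclear RNA, and the PPP1R10 to TOX4 ratio was highest after KCl in both fractions.

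WDR82, shared by Restrictor, PTW/PP1 and the SET1 complexes, was lower after long IM treatment in both fractions. Its mRNA read 153, 125 and 154 CPM in CTRL, 102, 123 and 112 after IM 6h and 102, 113 and 113 after IM 18h. All 6 of these IM libraries were below CTRL. The change at IM 18h was -0.39 (SE 0.14, adjusted p 0.0267) and needed each of 3 libraries to pass, IM 18h replicate 1 and CTRL replicates 1 and 3. With upper quartile scaling it did not pass (-0.32, adjusted p 0.0641). At IM 6h it was -0.36 (SE 0.14, adjusted p 0.0868) and did not pass, but it did with the replicate block (-0.35, adjusted p 0.00346). Without a block the IM 6h change passed without the low-count filter (-0.40, adjusted p 0.031) or CTRL replicate 2 (-0.47, adjusted p 0.0442), but not in the other settings. Nuclear WDR82 fell from 117, 125 and 131 CPM to 79.9, 98.3 and 97.6 after IM 18h, a log2 fold change of -0.43 (SE 0.11, adjusted p 0.00208) that passed without any 1 library. After IM 1h it read 126, 120.5 and 130 (129.7) in nuclear RNA, and IM 18h was below IM 1h by -0.45 on the log2 scale (SE 0.11, adjusted p 0.0017). No JTE or KCl comparison with CTRL passed for WDR82, whose JTE 6h libraries were spread widely at 120 (119.8), 175 and 184 CPM.

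ZC3H4, the zinc finger subunit of Restrictor, passed in no comparison with CTRL in the main fit. Its CTRL mRNA libraries were spread over 104, 95.2 and 71.8 CPM. KCl 3h had the lowest group mean, with libraries at 59.4, 75.6 and 56.2 CPM that overlapped CTRL through 1 library (log2 fold change -0.50, SE 0.18, adjusted p 0.056). This change passed with the replicate block (-0.50, adjusted p 0.000739). Without a block it passed with library totals only, without the low-count filter and without genes over 1% of counts. It also passed without CTRL replicate 3 (-0.66, adjusted p 0.0219) or KCl 3h replicate 2 (-0.64, adjusted p 0.0308), but not in the other settings. Against KCl 1h the change was -0.39 (adjusted p 0.283), and with the block it passed too (-0.39, adjusted p 0.0151). In nuclear RNA the group means of ZC3H4 lay between 173 and 184 CPM, a ratio of 1.06, the smallest range of the 7 members in that fraction. At IM 18h, where WDR82 fell, ZC3H4 changed by 0.07 in mRNA (adjusted p 0.764) and by -0.05 in nuclear RNA (95% interval -0.24 to 0.14).

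**Figure D5:**
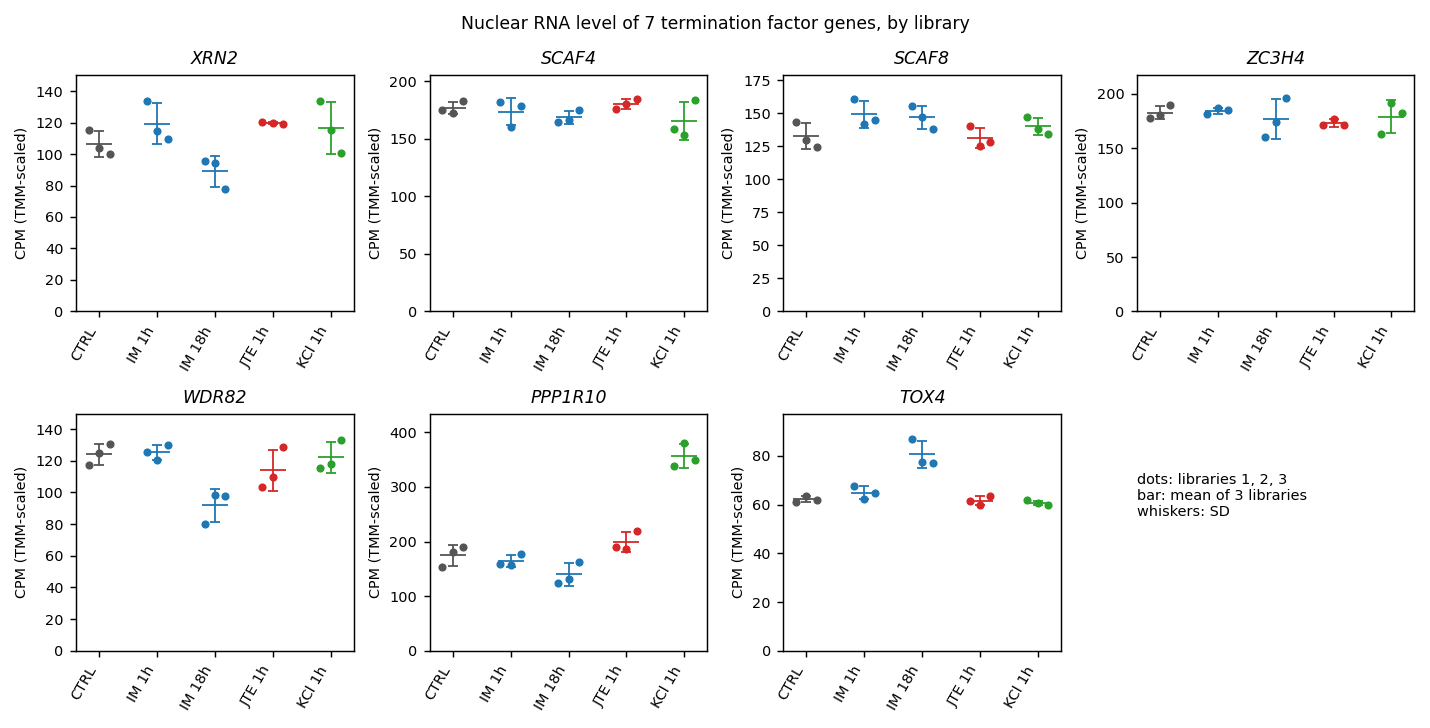
Nuclear RNA level in TMM-scaled CPM (y axis, from 0) in each of 15 libraries (dots) with the mean and SD of each group of 3 (x axis). PPP1R10 was above 337 CPM in all KCl 1h libraries and at most 190.3 in CTRL, WDR82 was lower and TOX4 higher after IM 18h, and the group means of SCAF4, SCAF8 and ZC3H4 differed by at most 1.14 times.

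XRN2, the exonuclease, had the narrowest mRNA range with group means from 108 to 144 CPM. In mRNA it read 119, 137 and 124 CPM in CTRL and 109, 104 and 112 after IM 18h, all 3 below CTRL (log2 fold change -0.22, SE 0.08, adjusted p 0.024). It did not pass without CTRL replicate 2 or IM 18h replicate 1 or 2, nor with upper quartile scaling (-0.15, adjusted p 0.12), library totals only (-0.19, adjusted p 0.0644) or no low-count filter (-0.30, adjusted p 0.0925). At IM 6h the change was -0.17 (adjusted p 0.135), and -0.17 with the replicate block (adjusted p 0.0479). Nuclear XRN2 read 115, 104 and 100 (100.2) CPM in CTRL and 95.4, 94.0 and 77.7 after IM 18h, a change of -0.26 (SE 0.11, adjusted p 0.0741) that passed with the replicate number as a block (-0.26, adjusted p 0.00337). IM 18h was below IM 1h in the nuclei by a log2 fold change of -0.42 (SE 0.11, adjusted p 0.00507). JTE, which blocks the cut that gives XRN2 its entry site, left XRN2 mRNA at 0.06, 0.06 and -0.07 at 1, 6 and 18 h and nuclear XRN2 at 0.17 after 1 h, with no test passed. KCl 3h gave 0.19 in mRNA (unadjusted p 0.021, adjusted p 0.104), which passed with the replicate block (0.19, adjusted p 0.0313).

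Times of 1 treatment were then compared without CTRL. Between IM 1h and IM 6h and between IM 6h and IM 18h none of 7 members passed in mRNA (against 13.0% and 8.34% of all genes tested), with 2 and 0 at an unadjusted p under 0.05 and 0 and 0 by DESeq2. With the replicate block WDR82 was lower at IM 6h than at IM 1h (-0.34, adjusted p 0.0055). From JTE 1h to JTE 6h 1 member passed (TOX4, 13.0% of all genes), joined by WDR82 with the block (0.25, adjusted p 0.044), and from JTE 6h to JTE 18h 3 passed (PPP1R10, TOX4 and SCAF4, 21.8%). From KCl 1h to KCl 3h 1 passed (4.89%), PPP1R10 with 0.81 (SE 0.13, adjusted p 0.000488). Without the 2 deepest KCl 1h libraries, which leaves 1 library that is assumed to vary like the other groups, the PPP1R10 step was 0.87 (adjusted p 0.0505). In nuclear RNA 3 members passed between IM 1h and IM 18h (WDR82, XRN2 and TOX4, 44.3%).

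Treatments were compared with each other at matched times. At 6 h, 5 of 7 members differed between IM and JTE (34.8% of all genes tested): TOX4 was higher with IM by 0.82 (SE 0.105, adjusted p 2.29e-06) and SCAF8 by 0.29 (adjusted p 0.0455), while WDR82 at -0.51 (adjusted p 0.00655), SCAF4 at -0.36 (adjusted p 0.00898) and XRN2 at -0.24 (adjusted p 0.0204) were lower. Only the TOX4 difference passed without any 1 library. SCAF8 did not pass with RLE scaling (0.28, adjusted p 0.0566), nor without IM 6h replicate 2 or 3 or JTE 6h replicate 1, where it was 0.14 (adjusted p 0.309). The other differences failed as well, XRN2 without any of the same 3 libraries, SCAF4 without JTE 6h replicate 2 or 3, and WDR82 without JTE 6h replicate 3. At 18 h 4 differed (44.2%): TOX4 by 0.42 (adjusted p 0.00224), SCAF8 by 0.34 (adjusted p 0.0164), PPP1R10 by -0.45 (adjusted p 0.00902) and WDR82 by -0.35 (adjusted p 0.0487), the last of which no longer passed when any 1 of its 6 libraries was left out. SCAF8 did not pass without IM 18h replicate 1 or 2 or JTE 18h replicate 1 or 3. At 1 h none differed between IM and JTE in mRNA (1.16%; 1 at an unadjusted p under 0.05 and 0 by DESeq2), and SCAF8 passed with the replicate block (0.39, adjusted p 0.0252). KCl 1h exceeded JTE 1h in PPP1R10 by 0.79 (adjusted p 0.000497) and in SCAF8 by 0.41 (adjusted p 0.03), 2 of 7 members (5.47%). SCAF8 no longer passed when any 1 of the 6 libraries was left out, and without the 2 deepest KCl 1h libraries neither passed, at 0.70 (adjusted p 0.112) and 0.30 (adjusted p 0.711). Between KCl 1h and IM 1h, PPP1R10 was the member that passed, by 1.05 (adjusted p 1.35e-05; 7.46%).

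In nuclear RNA at 1 h, PPP1R10 was the member that differed between KCl and JTE (0.84, adjusted p 1.18e-05; 17.7% of all genes tested) and between KCl and IM (1.12, adjusted p 2.12e-07; 24.5%). None differed between JTE and IM (8.63%; 1 at an unadjusted p under 0.05 and 0 by DESeq2). With the replicate block PPP1R10 was higher after JTE than after IM by 0.28 (adjusted p 0.0088).

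The nuclear and mRNA responses to the 4 treatments measured in both fractions were compared by an interaction term. None of 7 members passed for IM 1h (against 0% of all genes tested), IM 18h (0.0901%), JTE 1h (0.0605%) or KCl 1h (0.668%), with 0, 1, 1 and 1 at an unadjusted p under 0.05 in edgeR. The members behind these counts were SCAF8 after IM 18h (0.37, adjusted p 0.886), SCAF8 after JTE 1h (above) and SCAF4 after KCl 1h (-0.37, adjusted p 0.422). With the replicate block 1 member passed for JTE 1h, SCAF8 as given above, and 1 for KCl 1h, SCAF4 (-0.37, adjusted p 0.000561, against 10.0% of all genes).

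A list of 37 further genes of the same processes was read beside the 7 members, and all 37 were tested in both fractions. After IM 18h 6 rose and 11 fell in mRNA, while of all genes 22.8% rose and 21.0% fell. In nuclear RNA 5 rose and 14 fell, while of all genes 22.6% rose and 23.1% fell. The list had median log2 fold changes of -0.14 and -0.16 against 0.04 and 0.00 for all genes. Of its 8 SET1 complex genes, 1 passed higher in nuclear RNA (ASH2L) and 5 passed lower, with a median of -0.37. Among these 5, 1 was called as well and is not named below, since 3 falls in the list were larger. Named by size among the genes called, at most 3 in each direction, were XRN1, the cytoplasmic relative of XRN2 (1.29 in mRNA, SE 0.22, adjusted p 7.36e-05, and 1.04 in nuclear RNA, SE 0.17, adjusted p 6.3e-05), NKRF, an XRN2-binding protein (-0.83 and -0.75), SSU72, a phosphatase of the polymerase C-terminal domain (-0.68 and -0.69), SRRT, which encodes the cap-bound factor ARS2 (-0.82 in mRNA), CTDP1, another such phosphatase (-0.71 in nuclear RNA), and ASH2L, a SET1 complex subunit (0.61 in nuclear RNA).

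Of the listed genes, PCF11 and RPAP2 were the ones called after JTE and KCl. PCF11, the CTD-binding subunit of cleavage factor II, rose from 103 ± 12.8 CPM in CTRL to 191 ± 29.3 after JTE 1h, 276 ± 21.2 after JTE 6h and 163 ± 8.16 after JTE 18h (SD, n = 3), log2 fold changes of 0.90, 1.42 and 0.66 with adjusted p 7.23e-05, 7.23e-09 and 0.000517. In nuclear RNA it rose from 113 ± 12.9 to 209 ± 15.8 CPM after JTE 1h (0.88, adjusted p 3.94e-05). RPAP2, a CTD phosphatase, rose after JTE 6h (0.69, adjusted p 0.00917), KCl 1h (0.69, adjusted p 0.0197) and KCl 3h (0.70, adjusted p 0.0083) in mRNA and after KCl 1h in nuclear RNA (0.64, adjusted p 0.00131). In mRNA, 1, 7 and 3 of 37 genes passed after JTE 1h, 6h and 18h, against 0.984%, 18.1% and 9.19% of all genes. After KCl 1h and 3h 1 and 3 passed (6.24% and 15.8%), after IM 6h 5 (16.0%) and after IM 1h 0 (0.0166%). In nuclear RNA 0 passed after IM 1h (0.0456%), 1 after JTE 1h (9.86%) and 2 after KCl 1h (27.2%). With the replicate block 3, 12 and 11 did in nuclear RNA, against 2.42%, 21.5% and 37.2% of all genes. In mRNA the block passed 11 after IM 6h (27.3% of all genes), 5 after KCl 1h (9.47%) and 5 after KCl 3h (22.5%). Neither the PP1 catalytic genes PPP1CA, PPP1CB and PPP1CC nor the SPT5 and SPT4 genes SUPT5H and SUPT4H1 passed in any of the 12 comparisons with CTRL.

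The genes whose mRNA pattern was most like each member were taken from 8817 genes with a mean of at least 10 CPM, by Pearson's r of the 9 group means of log2(CPM + 0.5). For PPP1R10 these were TRAPPC10 (0.984), UVRAG (0.965) and GADD45B (0.954), for TOX4 SMARCC2 (0.988), SIPA1 (0.984) and ABCC10 (0.984), for SCAF8 RCL1 (0.937), YOD1 (0.894) and LRIF1 (0.887), and for SCAF4 GFM2 (0.978), BTBD10 (0.974) and PDS5A (0.956). XRN2 was closest to ETV6 (0.991), PRKCQ (0.983) and FIP1L1 (0.980), ZC3H4 to SEMA4B (0.985), MED18 (0.979) and FOXK1 (0.978), and WDR82 to PANX1 (0.974), NXT1 (0.968) and DUSP7 (0.967). SCAF8 had the lowest best match of the 7. These are descriptions over 9 points of 1 experiment, picked as the highest of many, and no other member was among the 3 most like any member.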

How the data were processed

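Sequencing reads were, per the labels and the study's methods, trimmed and deduplicated with fastp, aligned to hg38 with STAR (unique alignments, introns up to 10000 bases) and counted by the authors with featureCounts over exons without a strand option. What the authors deposited are unnormalized whole-number counts, one value per gene and library, and the annotation release is not given in the sources used here. Removing duplicates without molecular identifiers can lower abundant transcripts, and depth limits only counting error. The members, the list of 37 further genes, the motifs and the tests were chosen with earlier results of these data known.

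The main test was the quasi-likelihood test of edgeR 4.0.16 under R 4.3.3 (robust fit, TMM, filterByExpr), with 1 term per group and all libraries of a fraction in 1 fit, over 18095 mRNA and 21929 nuclear genes, with Benjamini-Hochberg adjustment. Interactions used the 12 libraries concerned. CPM were TMM-scaled. From the further list, the genes named are those called in a comparison, at most the 3 largest rises and falls. Ratios were compared with exact permutation tests (scipy 1.17.1). Alternatives were DESeq2 1.42.0, other scalings, no low-count filter, fits of 2 groups, fits without genes over 1% of counts, a replicate block and leaving out each library. The ratios, the fit without the 2 deepest KCl 1h libraries and the block with exchanged CTRL numbers were added after seeing the data. The fits were tested on simulated data for IM 18h against CTRL, with 50 genes changed at each size. Of genes set at a log2 fold change of 0.4, 4.3% passed in mRNA and 11.4% in nuclear RNA. At 0.8 these shares were 36.4% and 63%, and at 2.5 they were 91.3% and 97.8%. Far fewer genes were changed there than passed after IM 18h in the data (43.8% in mRNA and 45.6% in nuclear RNA). The adjusted p is stricter when few genes change, so these shares do not give the sensitivity of that comparison. A member that did not pass is still not shown to be unchanged.

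Replicates differed by more than sampling noise (chi-square per gene 2.37 to 62.5), so each library counted once. They are labelled biological repeats, but nothing says that the cultures were otherwise independent. Replicate numbers come from the titles. Same-number libraries deviated together (every correlation above 0.1) between nuclear CTRL and each nuclear treatment (from 0.235 to 0.891) and in 11 of the 14 comparisons between treated groups, but in no mRNA comparison with CTRL. By library totals the study's read statistics exchange the numbers of mRNA CTRL replicates 1 and 2, and with that order 7 of the 8 mRNA comparisons with CTRL paired (from 0.121 to 0.877), all but JTE 18h. Replicates are named as labelled.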

Additional observations from a re-analysis of the deposited data

Results flagged for a closer look

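The following changes were singled out because the response of a member to the same agent differed between times by a direct edgeR test that does not use CTRL. Differences between agents at the same time were taken only where that test passed and all libraries of one agent lay above, and all of the other below, every CTRL library. With JTE in mRNA, TOX4 was lower at 6 h than at 1 h by a log2 change of -0.59, and at 18 h it was higher than at 6 h by 0.56. PPP1R10 was higher at JTE 18h than at JTE 6h by 0.59. SCAF4 was lower by a log2 change of -0.36, which no longer passed in 5 of 6 cases without 1 library. With KCl in mRNA, PPP1R10 was higher at 3 h than at 1 h by 0.81. With IM in nuclear RNA, 18 h differed from 1 h by -0.45 in WDR82, -0.42 in XRN2 and 0.31 in TOX4. Between agents, TOX4 met this, being higher with IM 6h than with JTE 6h by 0.82. No group of 3 libraries was tested for single outlying libraries.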

How the results depend on the processing

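No member that passed changed direction under the alternatives run, although SCAF8 in nuclear against mRNA CTRL does so when each fraction is scaled on its own. The number of members past the adjusted p against CTRL changed by more than 1.5 times in these settings. For mRNA IM 6h it was 1 in place of 0 without the low-count filter and with the replicate block. For mRNA IM 18h it was 1 in place of 3 with upper quartile normalization and without the filter. For mRNA JTE 1h it was 0 in place of 1 with RLE or upper quartile normalization, without the filter, without genes over 1% of counts and with only the 2 groups. For JTE 6h and KCl 3h it was 1 in place of 2 with only the 2 groups. With the replicate block it was 1 in place of 0 for IM 6h vs IM 1h, IM 1h vs JTE 1h and nuclear JTE 1h vs IM 1h, and 2 in place of 1 for KCl 3h vs KCl 1h. With the exchanged CTRL numbers the mRNA counts between treated groups were the same, apart from 2 in place of 1 for JTE 6h vs JTE 1h, and the counts were 2 for IM 6h and 5 for KCl 3h against CTRL and 1 in place of 0 for the fraction differences of JTE 1h and KCl 1h. Without the 2 deepest KCl 1h libraries it was 0 for KCl 3h vs KCl 1h and for KCl 1h vs JTE 1h. Of the 37 further genes, the replicate block passed 11 in place of 5 after mRNA IM 6h, 2 in place of 1 after KCl 1h (as did DESeq2; 5 with exchanged numbers), 5 in place of 3 after KCl 3h, 7 in place of 3 after JTE 18h with exchanged numbers, and 3, 12 and 11 after nuclear IM 1h, JTE 1h and KCl 1h. The cause of these changes was not tested.

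Leaving out 1 library gave counts of members from 0 to 3 for mRNA IM 18h, 0 to 1 for IM 6h, 0 to 0 for JTE 1h, 1 to 2 for JTE 18h and KCl 3h against CTRL, 0 to 1 for IM 6h vs IM 1h, 1 to 2 for JTE 6h vs JTE 1h, 3 to 5 for IM 6h vs JTE 6h, 2 to 3 for IM 18h vs JTE 18h and 1 to 1 for KCl 1h vs JTE 1h. A group left with 1 or 2 libraries was assumed to vary like the others.

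The replicate numbers as labelled do not pair mRNA libraries with CTRL, so block values with them (WDR82 IM 6h -0.37, adjusted p 0.015, and ZC3H4 KCl 3h -0.51, adjusted p 0.00194) are given only here, as is nuclear PPP1R10 IM 18h vs IM 1h (-0.24, adjusted p 0.00833), for which the numbers do not pair either. Neither block changed whether any other member passed, beyond these and those given in the report. ZC3H4 mRNA KCl 3h also passed with library totals only (-0.54, adjusted p 0.0253), without the filter (-0.51, adjusted p 0.00332) and without genes over 1% of counts (-0.52, adjusted p 0.0461), and nuclear SCAF8 IM 18h passed with upper quartile normalization (0.27, adjusted p 0.0116) and with library totals only (0.22, adjusted p 0.0463). DESeq2 also passed XRN2 in KCl 3h (0.20, adjusted p 0.05) and in IM 18h vs JTE 18h (-0.17, adjusted p 0.0474). Another scaling moved the median of all genes by up to 0.12 on the log2 scale (nuclear IM 18h, upper quartile normalization), where nuclear PPP1R10 was -0.20 (adjusted p 0.189).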
